A study of Arabidopsis thaliana with 31 samples.

Results

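Poly(A)-seq reads of Arabidopsis thaliana that ended in exons of transcripts without a coding sequence (CDS) are described here. A 3′ end was taken as a member when the last base of the read, on the strand of the read, lay in an exon of such a transcript, outside every annotated CDS and untranslated region (UTR) and outside the 300 nt downstream of any gene on that strand. There were 1376 such distinct ends, from 10757 of 2753402 placed reads (0.391%, 95% Clopper-Pearson interval 0.383 to 0.398%), and they made up 0.700% of the 196638 distinct placed ends. Of these ends, 1309 lay in the exons of exactly 1 gene, its locus, and there were 309 such loci.

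The library was made from whole 2-week seedlings of wild-type Col grown on Murashige and Skoog plates at 23 °C with 16 h of light and 8 h of darkness. It is 1 library of 31 samples in a study of AtPABs, the poly(A) binding proteins of Arabidopsis, and no mutant or treated poly(A)-seq library was set beside it. Total RNA was partly digested with RNase T1, RNA with a poly(A) tail was captured on oligo(dT) beads, and an adaptor was ligated to the 3′ end, so that a read holds the end of the transcript followed by its tail. With n = 1 no value has a replicate error, and the intervals given cover counting error only. They treat reads as independent molecules, which reads without molecular identifiers are not. As a check of the tissue, 44197 reads ended at RBCS1A, a small subunit of Rubisco of green tissue, 36891 at CAB2, a chlorophyll-binding protein, and 4406 at PYK10, a root β-glucosidase. The seed storage protein genes SESA1 and CRA1 and the floral gene AG had 0 reads, which allows up to 3 reads each.

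Long non-coding RNAs of plants are mostly made by RNA polymerase II, and many are capped and polyadenylated like mRNAs. The small nuclear RNAs (snRNAs) of the spliceosome, the small nucleolar RNAs (snoRNAs) that guide or help rRNA processing, and the rRNAs themselves do not carry a stable poly(A) tail in their mature form, while short tails are known to be added to precursors and fragments that the nuclear exosome degrades. U6 snRNA, and in plants also U3 snoRNA, are transcribed by RNA polymerase III, which terminates in runs of T. Polyadenylation of mRNAs in plants uses an A-rich element upstream of the cleavage site, of which AATAAA is the best known form, together with U-rich elements near the site.

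The sequences below show the genome around the most used end (the main end) of the loci on which the results turn, on the strand of the RNA and in TAIR10.1. Lower case gives the 20 nt up to and including the last base of the read, and capitals give the 10 nt of the genome that follow. The first 3 long non-coding loci and U6.3 show ends in runs of T, followed by an end of U3D.
AT5G06845 (chr5:18891162-18891191, plus strand): gtaatctaaattaccttattTTTTTGCTTT
AT4G04565 (chr4:1473011-1473040, plus strand): ctcatatgaaccaccattttTTTCCTTCTT
AT1G09797 (chr1:29428233-29428262, plus strand): gtaatccaaattacctctttTTTTATAAAA
U6.3, AT4G07875 (chr4:13782292-13782321, plus strand): gagaaatggtccaaatttttTTTGTAAAAT
U3D, AT5G54075 (chr5:21945375-21945404, minus strand): gcggtctgacaggttcttttATTTTTTCAC
The next windows set 2 snRNA genes beside the genes annotated as lncRNA that hold a copy of their end, to show how alike the letters are.
U2.6, AT3G56705 (chr3:21004669-21004698, plus strand): acaggcttggctcaacccgcCAAATTTATA
AT5G09065 (chr5:25066742-25066771, plus strand): aggcttggctcatcccgccaACAAATCAGT
U1.5, AT1G08115 (chr1:2538066-2538095, minus strand): gcgttcgcgcagcccctaccATTAGTTCCA
AT5G07745 (chr5:20996904-20996933, plus strand): gcgttcgcgcagcccctaccATTCTCAGTC
The windows after these show a leading end before a long A run, one before no such run, and the 3′ end of an rRNA.
AT4G38932 (chr4:18151817-18151846, minus strand): caatatgaaatttggccgacAAAAAAAAAA
AT1G10682 (chr1:3544974-3545003, minus strand): atattagaaatctgtttttcATTTCCTCGT
18S rRNA, AT3G41768 (chr3:14199465-14199494, plus strand): aacctgcggaaggatcattgTCGATACCTG
The last window is the 30 nt that end at the main end of AT1G10682, with the AATAAA motif in capitals; it begins 27 nt before the last base of the read.
AT1G10682 (chr1:3544984-3545013, minus strand): atAATAAAaaatattagaaatctgtttttc

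By annotated class alone, long non-coding genes held 48.9% of the reads. The 220 loci annotated as lncRNA, ncRNA, antisense RNA or misc_RNA, called long non-coding below, had 5255 member reads (48.9%, 95% interval 47.9 to 49.8%). The 81 genes of snRNAs, snoRNAs, rRNAs and tRNAs, called structural below, had 4694 (43.6%, 42.7 to 44.6%). The remaining loci were 7 pseudogenes with 24 reads and 1 miRNA precursor, MIR398b, with 1 read. A further 67 ends with 783 reads lay in exons of 2 loci and were counted as ends without being given to a locus. The largest such group lay in the 5.8S rRNA gene AT3G41979 and the lncRNA gene AT3G06355 over it, with 373 reads. Of the 3480 annotated lncRNA genes, 199 held a member end that lay in no other locus, and so did 24 of 82 snRNA, 43 of 287 snoRNA, 11 of 625 tRNA and 3 of 4 rRNA genes, the remaining rRNA gene being AT3G41979. Genes with shared ends alone are not in these counts.

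Reads were concentrated in few loci. The median locus had 3 reads (quartiles 1 and 11), and 90 loci had 1 read. The 10 loci with most reads held 54.3% of the reads given to a locus, and the first 15 held 65.3%. At least 20 reads, the minimum used for the spread of ends, were found in 28 long non-coding and 22 structural loci. The plot of reads by rank shows both classes among the leading loci.

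**Figure D1:**
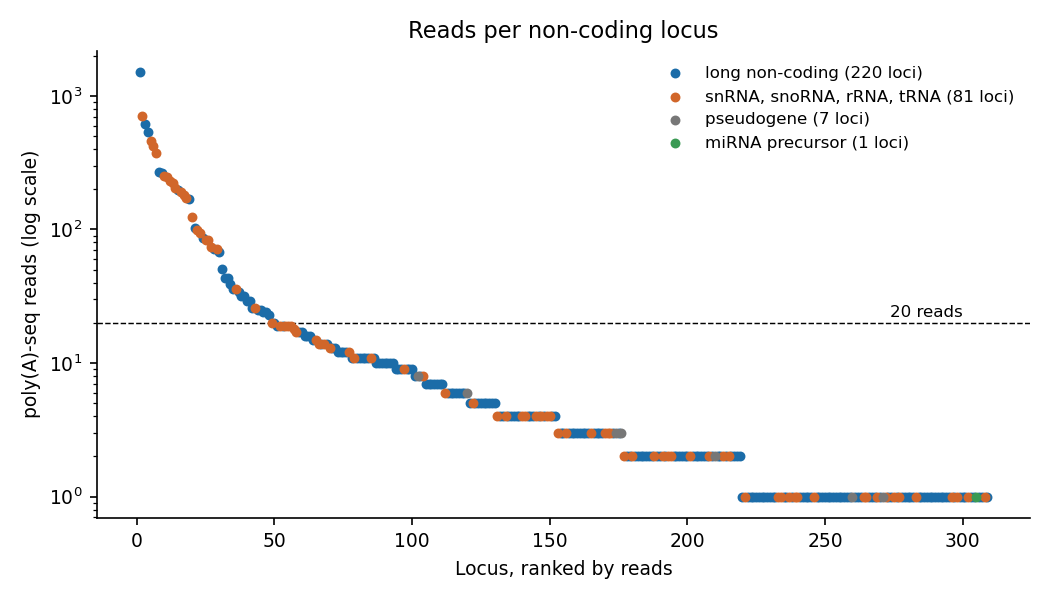
Poly(A)-seq reads of each of the 309 loci (y axis, log scale) by rank (x axis), 1 point per locus, coloured by annotated class. The leading locus had 1511 reads and the median 3, and 50 loci lay at or above the dashed line at 20 reads.

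AT5G06845, a single-exon gene annotated as lncRNA (chr5:18891003-18891437, plus strand), had the most reads, 1511. The main end at position 18891181 held 878 of them (58.1%, 95% interval 55.6 to 60.6%), the position before it held 343, and the next 4 positions held 52, 47, 86 and 56. All 6 positions are in 1 run of T, and 1467 reads ended inside a run of at least 4 T. An A followed in the genome for 28 reads, and AATAAA stood in the window before the end for 0. The middle 80% of reads spanned 3 nt, and the main end was 256 nt short of the annotated end. The 50 nt before the main end had no other copy in the genome with up to 3 mismatches, and 1482 reads had a mapping quality of at least 10. The nearest coding gene on the strand was AT5G46560, which ended 664 nt upstream and had 2 reads itself, and BSK2, a brassinosteroid signalling kinase, began 3197 nt downstream with 16 reads.

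AT4G04565, also annotated as lncRNA (chr4:1472018-1473136, plus strand), had 618 reads with ends of the same kind. Its main end held 270 reads (43.7%, 39.7 to 47.7%), and 110, 90, 57 and 55 reads ended at the 4 neighbouring positions, so that 588 ended in a T run and 12 before an A. The 50 nt before the end occurred 3 times in the genome, 1 of the others being identical, and 143 reads reached a mapping quality of 10. The other reads cannot be divided between the copies. No coding gene overlapped it. SYP123, a syntaxin, was the nearest upstream on the strand, at 5280 nt, with 3 reads.

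Ends in a T run were the majority in 11 of the 50 loci with at least 20 reads, with 3186 reads in all. 5 of the 11 were long non-coding, among them AT5G06845, AT4G04565, AT1G09797 and AT5G65575, and 6 were structural. The structural ones were U3D with 310 of 458 reads, U6.3 with 201 of 206, U6-1 with 81 of 84, U6-29 with 79 of 84, U6.6 with 34 of 36 and U6acat with 23 of 26. U6 pairs with U2 in the active spliceosome, and U6acat takes its place in the minor spliceosome. Counted over all reads, 43.5% of those in long non-coding exons and 16.3% of those in structural exons ended in such a run, against 6.09% of reads in 3′-UTRs. Counted over distinct ends, where the 2 leading loci weigh little, the shares were 11.8% (9.67 to 14.2%), 10.4% (7.87 to 13.4%) and 8.65% (8.52 to 8.77%). At every position of the long non-coding loci taken in turn the share was 4.097%. Tails were removed from the reads before alignment, which moves ends off a genomic A, while these positions were not shifted. They are therefore not a like measure. U6.3, U6-1 and U6-29 are identical over the last 50 nt and had 0 reads that reached a mapping quality of 10, so the reads among these copies cannot be divided. Reads that name U6.3 itself numbered 87, beside the 206 placed in it.

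The U2 snRNA, which recognises the branch point of introns, gave the largest structural family. U2.4 (AT3G56825) had 710 reads, U2.3 250, U2.7 247, U2.2 222, U2.6 181 and U2.5 72. In U2.4 the 4 leading adjacent positions held 207, 219, 137 and 104 reads, and no read ended in a T run. The middle 80% of reads spanned 3 nt in U2.4, U2.3, U2.7, U2.2 and U2.6 and 2 nt in U2.5. Main ends in U2.4, U2.3, U2.2 and U2.6 were followed by C in the genome, and those in U2.7 and U2.5 by A. The last 50 nt of U2.4 had no second copy, and 17.6% of its reads reached a mapping quality of 10, beside 30.8% in U2.7 and 0 reads in U2.2. The U2.4 gene overlapped both coding genes beside it on the strand, AT3G56820 with 8 reads and AT3G56830 with 0.

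The U1 snRNA, which pairs with the 5′ splice site, followed with 229 reads at U1.7, 191 at U1.6 and 125 at U1.5, and the last 50 nt of each had 9 places in the genome. Reads that name the gene itself numbered 106 for U1.7, 80 for U1.6 and 125 for U1.5. The order of these genes therefore rests on reads that name other transcripts. U3D, the snoRNA that takes part in the first cleavages of the rRNA precursor, had 458 reads, and its ends were less fixed. The main end held 110 reads (24.02%, 20.2 to 28.2%), and 93, 61, 26, 22 and 22 reads ended at the next most used positions within 6 nt. U3D runs against HSFA9, a heat shock factor of seeds, on the other strand, and HSFA9 had 0 reads.

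Both genes of 18S rRNA, the RNA of the small ribosomal subunit, ended at their annotated last base. AT3G41768 had 421 reads, 180 at the last base and 86 at the base before it, and AT2G01010 had 375, with 175 and 65. The ends at both genes also reached far inside: 87 distinct ends were found in the first and 76 in the second, and the middle 80% of reads spanned 1088 and 836 nt. The 2 genes are identical over the last 50 nt and no read had a mapping quality of at least 10, so the division of reads between them is uncertain. The 5.8S rRNA gene AT2G01020, of the large ribosomal subunit, had 161 of 173 reads at 1 base, 2 nt before its annotated end.

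Some genes annotated as long non-coding held copies of structural RNAs at their main ends. Among the 28 long non-coding loci with at least 20 reads, 3 had a copy of the 50 nt before their main end inside an annotated structural gene. Up to 3 mismatches were allowed, and these 3 loci had 348 reads, counted over all their ends. AT5G09065 (268 reads) differed from U2.6 at 2 of the 50 bases. AT5G07745 (29 reads) was identical to U1.2 over that stretch, and AT5G07325 (51 reads) was identical to U4.2, the snRNA that holds U6 inactive before splicing. Outside the 15 leading loci, AT5G07745, AT5G07325, AT1G09797, AT5G65575, AT2G01020, AT1G25098, U1.6, U1.5, U2.6, U2.5, U6-1, U6-29, U6.6 and U6acat were picked after their values were seen.

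The ends of AT5G09065 were as close together as those of the U2 genes. Its reads lay at 5 adjacent positions with 21, 54, 55, 105 and 26 reads, the middle 80% of reads spanned 3 nt, as in 5 of the 6 U2 genes above. The genome base at the end was A for 132 of its 268 reads. The alignments hold no read bases, so this is the base of the genome rather than one seen in the read. In the U2 genes this share was lower, with 92 of 247 reads in U2.7, 51 of 250 in U2.3, 34 of 222 in U2.2, 104 of 710 in U2.4, 17 of 181 in U2.6 and 1 of 72 in U2.5. Over all placed reads the genome base at the end was A in 1.27%. The gene overlapped AT5G62420 on the same strand, which had 0 reads, and AT5G62460 began 8021 nt downstream with 139 reads.

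AT1G10682 (chr1:3544913-3545614, minus strand), annotated as ncRNA, was the leading long non-coding locus whose ends lay outside T runs, and its end had no second copy in the genome. It had 538 reads, 535 of them with a mapping quality of at least 10. A first cluster was at position 3544984 with 265 reads (49.3%, 45.0 to 53.6%) and a second 15 nt upstream of it with 154. An A followed in the genome for 475 reads, and 311 reads had AATAAA 10 to 35 nt before the end. The main end was 71 nt short of the annotated end. On the same strand AT1G10690 lay 4936 nt upstream with 14 reads, and PGP10, an ABC transporter, lay 1059 nt downstream with 3.

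AT4G38932, annotated as lncRNA (chr4:18151827-18152597, minus strand), had 177 of its 196 reads (90.3%, 85.3 to 94.1%) at a single base. That base is the last one annotated, and the genome goes on with 10 A. Of all its reads, 185 ended before an A-rich stretch, defined as 6 A in a row or at least 7 A in the next 10 nt. A genomic A run and an added tail cannot be told apart in these reads, since the run of A at the end of a read was taken as its tail and removed before alignment. The coding genes on its strand were AT4G38950, 2568 nt upstream with 5 reads, and BPC5, a GAGA-binding protein, 4747 nt downstream with 3.

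AT1G25175 and AT1G25098 are copies of each other and of 2 further places in the genome. AT1G25175, annotated as ncRNA, had 263 reads at 52 distinct ends and AT1G25098, annotated as lncRNA, 169 at 44, all with a mapping quality below 10. Reads at the main ends cannot be divided between these places, the coding gene among them. In AT1G25175 the main end held 84 reads, the next, 600 nt downstream, held 31, and another, 178 nt downstream, held 15. Reads at both copies were followed by A in the genome, in 87.5% and 90.5% of reads. AT1G25175 overlapped AT1G25180 on the strand, with 33 reads outside the stretch covered by both genes.

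The leading ends differed in shape between loci, as the plots of 6 loci show.

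**Figure D2:**
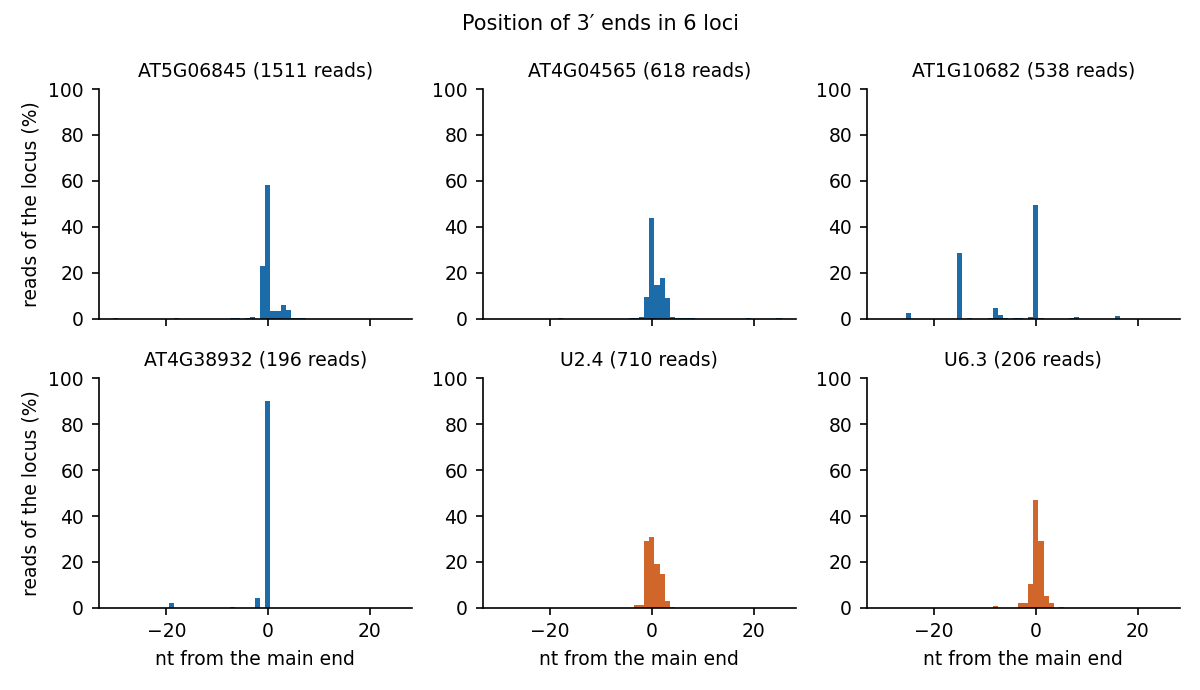
Share of the reads of a locus (y axis, percent) at each position from its main end (x axis, nt, downstream to the right) in 4 long non-coding loci (blue) and 2 snRNA genes (orange). The main end held 58.1% in AT5G06845, 43.7% in AT4G04565, 49.3% in AT1G10682, 90.3% in AT4G38932, 30.8% in U2.4 and 47.1% in U6.3.

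Over the 28 long non-coding loci with at least 20 reads the main end held a median of 41.7% of reads (order-statistic 95% interval 29.2 to 54.2%), and over the 22 structural loci 41.5% (32.4 to 48.8%). Coding genes with at least 20 reads, 9529 in all, had a median of 34.4% (34.0 to 34.7%). The width of the middle 80% of reads separated the classes more than the main end did. It had a median of 52 nt (12 to 153) in long non-coding loci and 3 nt (2 to 6) in structural loci, beside 63 nt (62 to 64) in coding genes. These intervals treat loci as independent, but some structural loci are copies of each other whose reads cannot be divided. The 50 nt before the main end had another copy, with up to 3 mismatches, in 14 of 22 structural and 7 of 28 long non-coding loci. The structural intervals may therefore be too narrow, and the counts of structural loci count some families repeatedly. No test was run between classes, and the interval of the long non-coding loci holds the median of coding genes. The width was at most 10 nt in 8 of 28 long non-coding and 19 of 22 structural loci, and over 100 nt in 11 and 3. The main end lay within 10 nt of the annotated end in 2 long non-coding and 14 structural loci.

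**Figure D3:**
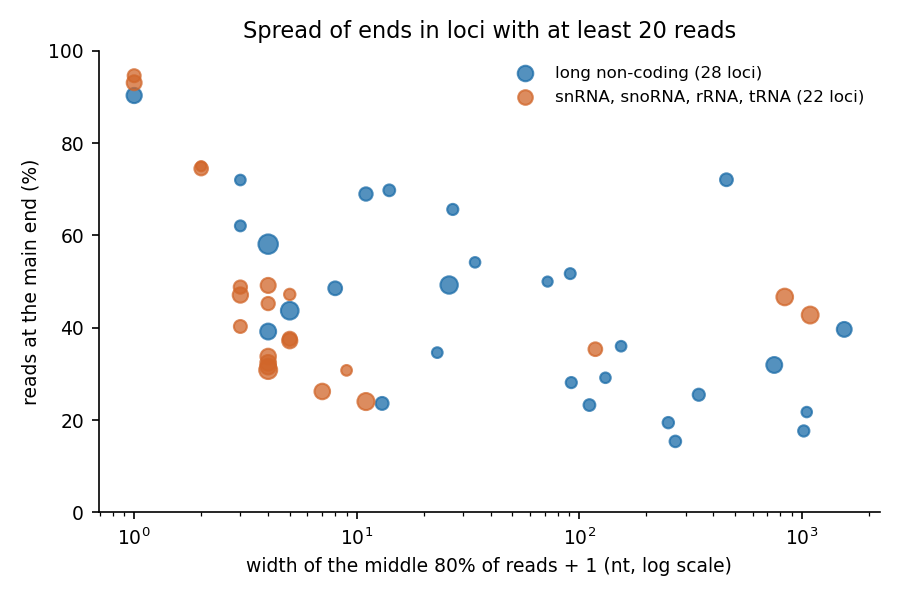
Share of reads at the main end (y axis, percent) against the width of the middle 80% of reads plus 1 (x axis, nt, log scale) in loci with at least 20 reads, larger points for more reads. Of the structural loci (orange) 19 of 22 had a width of at most 10 nt, and of the long non-coding loci (blue) 8 of 28.

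The bases at the ends of all long non-coding exons were close to those of 3′-UTRs when each distinct end was counted once. Of the 822 distinct ends in long non-coding exons, 63.4% (60.0 to 66.7%) were followed by A, beside 63.0% (62.8 to 63.3%) of 184119 ends in 3′-UTRs and 28.8% of all positions of the same loci. The genome base at the end was A in 4.14% (2.88 to 5.73%) of long non-coding ends and in 6.88% of 3′-UTR ends. Of the 500 structural ends, 35.2% (31.0 to 39.6%) were followed by A, beside 26.1% of all positions of those loci. The tail, by the authors' methods a stretch of A with up to 5 interspersed G, was removed before alignment. This moves an end after a genomic A, or after a G within such a stretch, to before it. All positions of the loci were not shifted in this way, so they give no measure of an excess of A after the ends. Counted over reads, of which the 5 T-run loci held 2292, the shares were apart. A followed 45.9% of the 5314 long non-coding reads, 29.2% of the structural reads and 80.9% of the 3′-UTR reads. Among long non-coding loci with at least 20 reads, A followed at least 50% of the reads in 21 of 28, and in 5 of 22 structural loci.

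**Figure D4:**
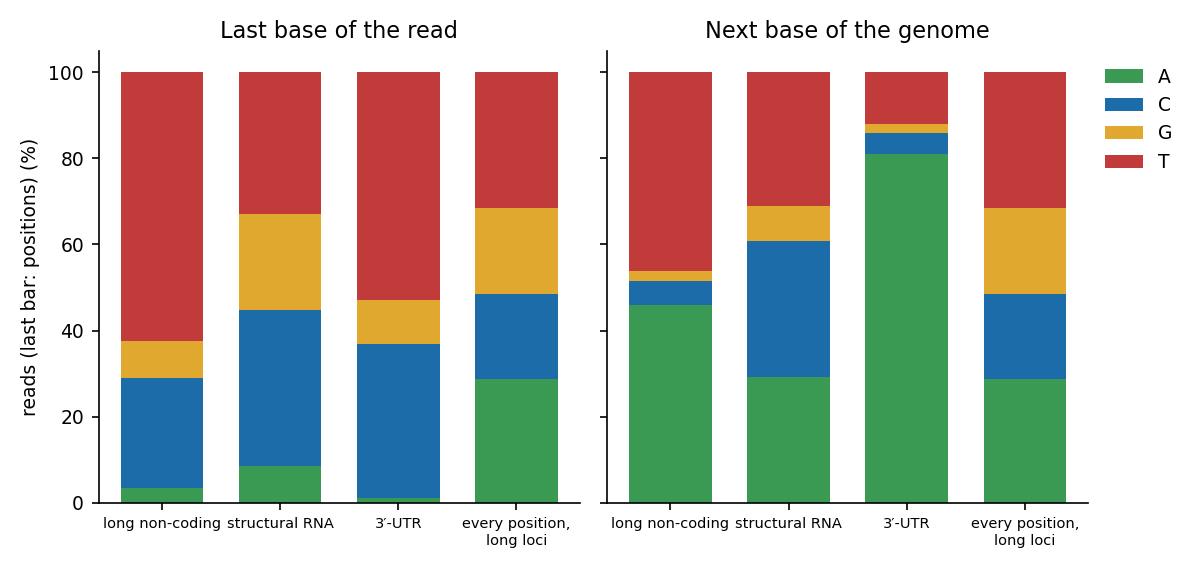
Genome base at the end of the read (left, titled last base of the read) and next base of the genome (right) as percent of reads (y axis). Bars are long non-coding, structural and 3′-UTR ends, with every position of the long non-coding loci as the last bar. That bar was not shifted for the removal of A at read ends. The genome went on with A for 45.9, 29.2 and 80.9% of reads.

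The composition around the ends followed the same division. In long non-coding ends the share of A was 34.1% at 25 nt and 34.9% at 15 nt before the end, beside 32.1 and 35.3% in 3′-UTR ends and 21.2 and 23.8% in structural ends. In the genome, T stood at the end itself in 48.9% of long non-coding, 51.3% of 3′-UTR and 40.2% of structural ends.

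**Figure D5:**
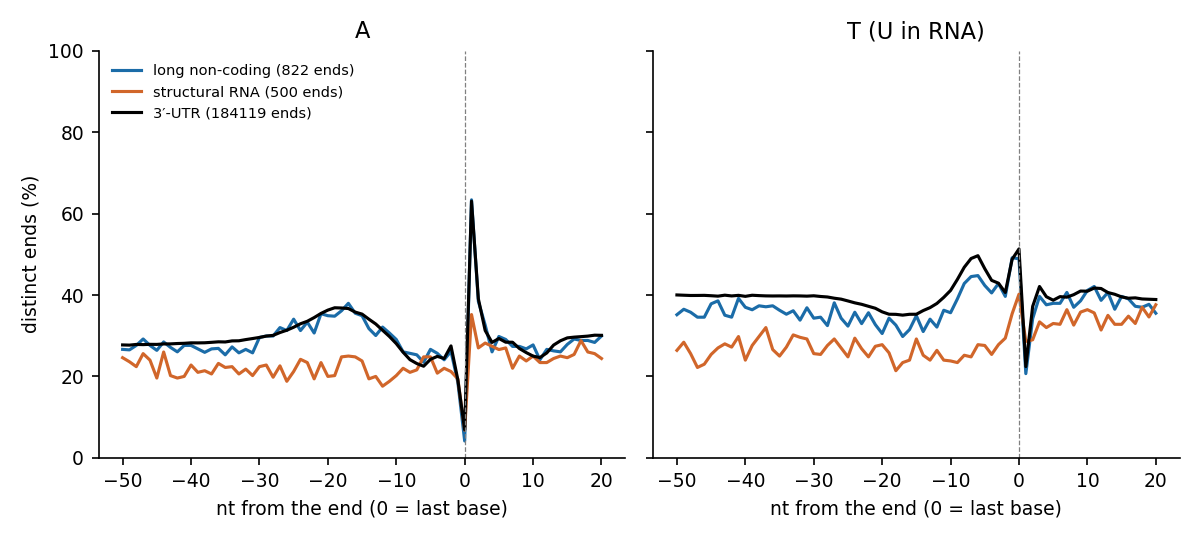
Share of distinct ends (y axis, percent) with A (left) or T (right) at each position from 50 nt before to 20 nt after the last base (x axis, 0 is the last base). The A line of long non-coding ends reached 63.4% at the next base and that of 3′-UTR ends 63.0%, while structural ends reached 35.2%.

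AATAAA, searched on the strand of the RNA from 10 to 35 nt before the end and counted once for each end, was present at 48 of 822 long non-coding ends (5.84%, 4.34 to 7.67%). The share was 6.51% (6.40 to 6.62%) at 3′-UTR ends, 0.800% (0.218 to 2.04%) at structural ends and 1.37% at every position of the long non-coding loci. At the main ends of the 89 long non-coding loci with at least 5 reads the motif was present in 10 (11.2%, 5.52 to 19.7%), and at those of 39 structural loci in 0, with an upper limit of 9.03%. TGTA, searched from 36 to 100 nt before the end and not overlapping the first window, was found at 37.6% (34.3 to 41.0%) of long non-coding, 14.0% (11.1 to 17.4%) of structural and 55.5% (55.3 to 55.8%) of 3′-UTR ends, and at 23.3% of all positions of the long non-coding loci.

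An A-rich stretch followed 49 of 822 long non-coding ends (5.96%, 4.44 to 7.80%), 7 of 500 structural ends (1.40%) and 5.04% (4.94 to 5.14%) of 3′-UTR ends. All positions of the long non-coding loci gave 2.33% and those of the structural loci 0.705%. These positions were not shifted for the removal of A at read ends, so they are not a like measure. The reads before such stretches sat in few loci, as 185 of the 388 long non-coding ones were those of AT4G38932.

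Most long non-coding loci lay across a coding gene. A gene with CDS overlapped 141 of the 220 on the other strand (64.1%), and 12 of the 81 structural loci, and in 88 and 8 of these it also covered the main end. The same share over all annotated genes of these classes was not set beside it. The overlap therefore cannot be called particular to loci with member ends. The coding gene had 0 reads in 39 of the 141 (27.7%), while 33.6% of all 27444 coding genes had 0. Its median was 8 reads, against 7 over all coding genes and 3 for the long non-coding locus. Where several coding genes overlapped a locus, the one with most reads was taken. The values over single coding genes are therefore not a like measure. The locus had more reads than its coding partner in 57 of the 141. On the same strand, a coding gene ended within 1000 nt upstream of the main end at 34 of 220 long non-coding loci and began within 1000 nt downstream at 23. The medians of these distances were 4336 and 4604 nt.

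The downstream limit of 300 nt set which ends were kept. Just inside it, 33 distinct ends with 143 reads lay 301 to 350 nt downstream of a gene, and just outside it, 24 with 67 reads lay 251 to 300 nt downstream. Of the placed reads that named a transcript without CDS, 36986 ended in an annotated UTR and 5490 downstream of a gene, and neither were members.

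Member reads were shorter than the library, and the structural ones less often had a high mapping quality. The median mapped length was 39 nt, beside 58 nt for all placed reads. A mapping quality of at least 10 was held by 58.9% of long non-coding and 12.9% of structural reads, beside 56.6% of all placed reads. Reads with the same start and end as an earlier one were 69.4% of member reads and 76.8% of all placed reads. An exon junction was crossed by 16 member reads. Of the member reads, 688 name a transcript with CDS, and 765 are listed antisense to the transcript they name.

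None of 18 listed loci of described plant non-coding RNAs had a member end when transcripts were matched by name. The precursors of trans-acting siRNAs are RNAs that are cut by a miRNA-guided slicer and turned into phased siRNAs. Of these, TAS1A, TAS1B, TAS1C, TAS2 and TAS3A are named in the alignments by transcripts that the annotation lists under other names. The same holds for ASCO, GUT15 and DRIR, so the reads of these loci were not placed by name. TAS3B, TAS3C and TAS4 had 0 named reads. Laid on the single annotated transcript, 5 of the 18 had reads that met the rule, with 82 in ASCO, 55 in TAS1A, 27 in TAS1C, 18 in TAS2 and 5 in TAS1B. GUT15 had 80 reads and TAS3A 169, which were not placed. The target mimics IPS1 and AT4 and the auxin-related APOLO are annotated as protein coding, with 1, 45 and 5 reads. HID1, which acts in seedling photomorphogenesis, had 1 read, outside the rule, and COOLAIR, the antisense transcripts of the flowering repressor FLC, had 3. ELENA1 and MARS had 0 reads.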

How the data were processed

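The deposited file of the poly(A)-seq library lists, for each read, the named transcript, its start and end in that transcript (positions in nt), its mapping quality score and its strand. By the authors' methods, the adaptor and the tail were removed and reads of at least 18 nt were aligned with Bowtie2 with few mismatches; the release of the transcript set is not given in the sources used here, and the build named is TAIR10. Reads were placed on TAIR10.1 (RefSeq) through the exons of the transcript of the same name. Left out were 19281 reads of 433 transcripts absent by name and 13598 reads of 138 transcripts with a read past the annotated end. All 2000 simulated reads were placed at their true end.

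Ends were chained into sites within 24 nt. Copies of the last 50 nt were searched with bwa 0.7.19, allowing up to 3 mismatches. Python 3.11.15, numpy 2.4.6, pandas 2.3.3, scipy 1.17.1 and matplotlib 3.10.9 were used. Since the library has no group to be compared with, no test was run. A coding gene's reads were those ending in it or up to 300 nt downstream, in 1 gene only. By rule, the text names the 15 loci with most reads, listed loci, up to 5 miRNA precursors, coding neighbours and tissue genes, and the others it names were picked after their values were seen. Members and lists were chosen with earlier results of these data known. Mapping quality, repeated reads, the extension, A-rich ends, the motif and thresholds were varied. The values of a further locus are not reported here.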

Additional observations from a re-analysis of the deposited data

Results flagged for a closer look

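Reads of non-coding genes left unplaced by name stood outside the comparisons above. In the file 98 transcripts of 80 genes, with 4822 reads, carry a transcript name other than that of the annotation, so they were not used. For 60 of these genes 1 transcript is annotated and 1 is named, and 2213 reads were laid on it. The genome base at the end was A in 3.43% of these reads and the next genomic base A in 77.9%, beside 1.27 and 80.6% of all placed reads.

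With these genes, 2053 reads at 375 distinct ends in 52 loci met the rule. AT3G12965 had 642 reads, with 155 at its main end and 122 and 78 at ends 6 and 30 nt downstream. ASCO (AT1G67105), an RNA that binds splicing factors, had 82 reads, 73 of them at 1 base, and 80 ended before an A-rich stretch. AT2G14878 had 166 of 200 reads, and AT5G48412 108 of 122, before such a stretch. Of the trans-acting siRNA precursors TAS1A had 55 reads, 25 of them at its annotated end, TAS1C had 27, TAS2 18 and TAS1B 5, while TAS3B, TAS3C and TAS4 had 0 named reads. DRIR, an RNA of the drought response, had 3 placed reads, none of them within the rule. The other 20 genes have 2 or more annotated transcripts and 2609 reads, which were not placed. Among them AT3G06125 had 866 reads, AT1G79075 494, TAS3A 169 and GUT15, an RNA known for its short half-life, 80. AT3G12965, AT2G14878, AT5G48412, AT3G06125 and AT1G79075 were named after their values were seen.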

How the results depend on the processing

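Of 91 recomputed values under 13 settings, 61 stayed within the interval of the reported value or within 1.5 times the reported count and 30 did not. 3 of the settings were chosen after seeing the data. With a mapping quality of at least 10 there were 3765 reads at 389 ends in 149 loci, the 10 leading loci held 77.1% of reads, the median main end 65.6%, A-rich and AATAAA ends made up 5.66% each, and 42.3% of loci lay over a coding gene. Identical reads counted once left 3292 reads, a median of 2 reads a locus, 40.2% in the 10 leading loci and 27.1% at the main end. Without the downstream extension the 10 leading loci held 58.5% and 44.8% of loci lay over a coding gene. With 1000 nt there were 6496 reads and 57.4% in the 10 leading loci. Without A-rich ends this share was 56.3%. There were 130 loci with at least 5 reads, a median of 2.5 sites with a chain of 10 nt, 23.8% of ends with AATAAA allowing 1 other base, and 0.872% A-rich ends by the strict definition. With the extension of coding genes alone the values were 59.5% and 42.5%, and with genes under other transcript names 48.6% and 45.8%. Long non-coding loci alone gave 72.8% in the 10 leading loci, a width of 52 nt, 5.96% A-rich, 5.84% AATAAA and 64.1% over a coding gene.

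No paired analysis was possible because the poly(A)-seq part is 1 library without a second group. For the same reason no replicate was left out. Depth limits most loci, 90 of which had 1 read. Why the values moved was not tested.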
